A study of Drosophila melanogaster with 2 samples.

Results

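The regions described here are binding peaks of the transcription factor Hand that lay between genes and away from promoters in Drosophila melanogaster embryos. A peak was included when its summit, the position of highest signal, fell outside every protein-coding gene and more than 500 bp from every protein-coding transcription start site (TSS). Of the 3310 peaks in the deposited reproducibility-thresholded list, 452 met this rule. They were split by distance into 217 near summits, at most 2 kb from a protein-coding gene, and 235 far summits, more than 2 kb from one. The study consisted of 1 group, a stably transgenic line whose Hand protein carried a C-terminal green fluorescent protein (GFP), assayed by chromatin immunoprecipitation with an antibody against GFP and sequencing. Whole embryos of mixed sex, 6 to 24 h old, gave 2 biological replicates, labelled replicate 2 and replicate 3, and the sonicated chromatin was 200 to 800 bp long. Signal from the few cells that make Hand was therefore measured in chromatin of all cells of the embryo. The samples include no control library and hence no contrast, and the depth of the libraries is unknown.

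Hand is a basic helix-loop-helix protein made in the fly heart, called the dorsal vessel, and in pericardial cells, lymph gland and visceral muscle. Proteins of this class bind as dimers, often with Daughterless, to E-boxes, short sequences of the form CANNTG. Enhancers are stretches of DNA that raise transcription of a gene from a distance, and many of those that drive developmental genes in flies lie in the gaps between genes. In such enhancers heart and muscle factors of other classes, among them GATA, forkhead and Mef2 proteins, bind beside helix-loop-helix factors.

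The library labelled replicate 2 listed 4 peaks in the 90 kb centred on the gene Hand, and the library labelled replicate 3 listed 36. Windows of that length averaged 23.4 peaks in each list, over 1272 windows. Whether both libraries came from embryos with the construct was not tested, so values of replicate 3 alone stand beside most of the main shares and counts. The thresholded peak closest to Hand, at chr2L:10292234-10292669 with signal 234, was not among the 452, because its summit lay within 500 bp of a TSS.

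Sequences under some of the strongest intergenic summits are shown first, because they show what the counts of sequence words below rest on. Each window spans 50 bp on both sides of the summit, on the plus strand of dm6, from the RefSeq genome. Capitals mark the forkhead word TAAACA, the GATA word GATAA and the Mef2 word, each on either strand. The first 4 are the strongest near summits, the next 4 are far summits, the 3rd to 6th strongest, and the last is the strongest summit in the gap upstream of chinmo.
CG4004 to Paics, near, chrX:12751277-12751377: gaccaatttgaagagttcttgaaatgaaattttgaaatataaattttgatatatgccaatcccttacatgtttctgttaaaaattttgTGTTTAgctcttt
jp to brwl, near, chr2L:9567464-9567564: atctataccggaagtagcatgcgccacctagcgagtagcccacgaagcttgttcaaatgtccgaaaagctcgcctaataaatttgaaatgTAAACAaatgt
mtSSB to tara, near, chr3R:16224495-16224595: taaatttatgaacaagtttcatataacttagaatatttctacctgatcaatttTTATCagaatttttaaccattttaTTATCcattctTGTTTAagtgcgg
ph-d to ph-p, near, chrX:2124133-2124233: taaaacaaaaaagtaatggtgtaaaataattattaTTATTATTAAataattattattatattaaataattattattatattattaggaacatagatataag
Cyt-c1L to eEF1gamma, far, chr3R:29214399-29214499: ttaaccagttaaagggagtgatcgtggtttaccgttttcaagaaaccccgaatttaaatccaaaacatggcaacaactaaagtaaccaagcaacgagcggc
CG4004 to Paics, far, chrX:12752311-12752411: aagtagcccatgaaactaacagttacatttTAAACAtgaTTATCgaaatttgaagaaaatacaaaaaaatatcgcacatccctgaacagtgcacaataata
NimC3 to hll, far, chr2L:14024030-14024130: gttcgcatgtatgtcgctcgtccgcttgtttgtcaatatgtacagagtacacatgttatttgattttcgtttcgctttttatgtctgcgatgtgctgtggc
Dip-B to tal-1A, far, chr3R:13800488-13800588: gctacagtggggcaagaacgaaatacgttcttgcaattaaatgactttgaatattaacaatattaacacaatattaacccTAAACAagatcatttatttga
RFeSP to chinmo, far, chr2L:1643436-1643536: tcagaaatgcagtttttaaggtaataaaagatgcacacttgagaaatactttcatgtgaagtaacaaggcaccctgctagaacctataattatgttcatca

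These windows differed widely in base composition. The ph-d to ph-p window was 90.1% A or T and held 1 Mef2 word, while the NimC3 to hll window was 57.4% A or T and held none of the capitalised words. E-boxes were found in 3 of the 9 windows. The jp to brwl window and the chinmo window held 2 each and the NimC3 to hll window held 1. The tara window held 2 GATA words and 1 forkhead word without an E-box.

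Intergenic summits made up 13.7% of the thresholded list (95% Wilson interval 12.5% to 14.9%). The same rule applied to each replicate's own 3310 strongest peaks gave 438 summits in replicate 2 (13.2%) and 453 in replicate 3 (13.7%), a mean of 13.5% ± 0.320 (SD, n = 2). Bases that met the rule made up 29.99% of the 6 main arms, or 25.7% of the bases between the first and the last thresholded summit of each arm. With 2 replicates an exact sign-flip test cannot give a p below 0.5, so shares are set beside the bases available and beside the spread between replicates. Intervals cover counting error only and treat summits as independent, although 44 of the 452 peaks overlapped another thresholded peak.

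Summits thinned out with distance from genes. Near summits reached 23.2 per Mb of near bases and far summits 7.64 per Mb of far bases, a ratio of 3.03. The ratio was 3.00 in replicate 2 and 2.97 in replicate 3. When bases were counted only between the first and the last thresholded summit of each arm, which leaves out most of the heterochromatic arm ends, the densities were 24.8 near and 11.4 far and the ratio was 2.18. Far bases were 76.7% of those that met the rule, and held 52.0% of the summits (95% Wilson interval 47.4% to 56.6%).

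The highest density was not at the gene edge. Bases 500 to 1000 bp from a gene held 89 summits, 29.7 per Mb, against 38 summits and 19.2 per Mb closer than that. The same order was seen in replicate 2 (30.7 and 15.1 per Mb) and in replicate 3 (27.7 and 19.7 per Mb). All bases closer than 500 bp were on the 3′ sides of genes, since the rule removed the surroundings of every TSS. Beyond 1000 bp the density was lower at each step. It was 20.5 per Mb up to 2000 bp, 13.3 up to 5000 bp, 8.56 up to 10000 bp, 7.58 up to 20000 bp and 1.87 beyond. The last group held 17 summits, and its density was 6.44 per Mb between the outermost summits of each arm. There the 10000 to 20000 bp group, at 10.3 per Mb, was level with the 5000 to 10000 bp group, at 10.1. The median summit was 2107.5 bp from a gene and 3773.5 bp from a TSS, and the most isolated was 58304 bp from a gene.

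**Figure D1:**
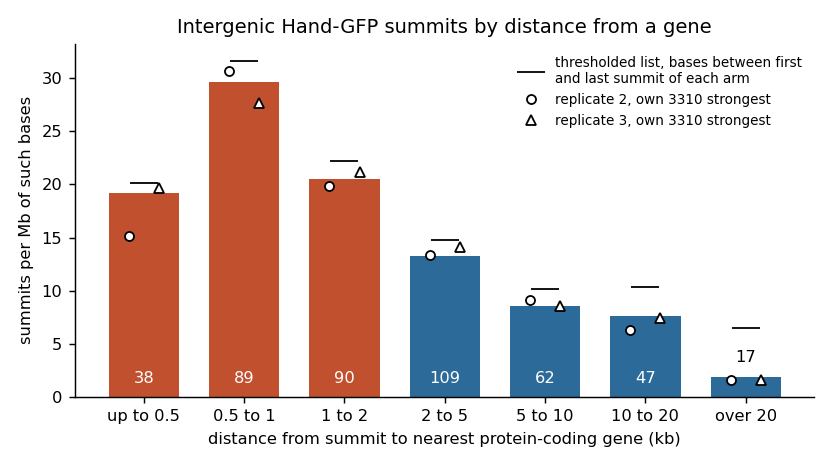
Summits per Mb of eligible bases (vertical axis) by distance from the nearest protein-coding gene in kb (horizontal axis). Bars are the thresholded list (numbers give the summits, red for near and blue for far), circles and triangles are each replicate's own 3310 strongest peaks, and dashes repeat the bars with bases counted only between the first and last summit of each arm. Both replicates peak between 0.5 and 1 kb, at 30.7 and 27.7 per Mb.

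All main arms held such summits at similar density, from 10.1 per eligible Mb on arm 4 to 12.5 on 2L. Arm 3L held the most, 115, of which 73 were far, and arm 4 held 3, all far. In replicate 3's own strongest peaks 2L and 3L held 107 each. Around the limits of the rule the values were as follows. The members closest to a TSS lay 501 bp (signal 119, near Cyp6v1, a cytochrome P450 gene) and 504 bp away (signal 478, near CG17896). The intergenic summits just outside the limit lay 493 bp (signal 342, near CG15172) and 488 bp from a TSS (signal 168, near jim). In all, 677 summits between genes were left out for lying within 500 bp of a TSS. At the 2-kb limit the near members at 1955 bp (CG31128) and 1952 bp (slbo, a C/EBP factor of border cell migration) had signals of 154 and 181, and the far members at 2009 bp (CG12290) and 2035 bp (CG1662) had 128 and 99.3.

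Intergenic peaks were somewhat weaker than peaks at a TSS and close to peaks inside genes and away from a TSS. Peak signal is the authors' caller's own value and has no fixed unit. The pooled signal ranged from 92.7 to 1486 with a median of 129.5, against 137.1 for the other 2858 thresholded summits. Of these, summits within 500 bp of a TSS had a median of 140.0 and those inside genes and away from a TSS 133.6. The 331 strongest peaks of the list held 31 of the 452 intergenic summits (6.86%) and 10.5% of the others. In replicate 2's own strongest peaks the medians were 50.3 for intergenic and 52.3 for other summits, and in replicate 3's they were 84.3 and 89.5. The median was 133.6 for near and 128.3 for far summits, and near was also higher in replicate 2 (51.2 and 49.8) and in replicate 3 (86.4 and 83.1). These medians differ by little against the quartiles of the intergenic signal, 106 and 183.

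Going down the pooled list of 30000 entries, which is labelled as peaks and background, a growing share lay between genes. The part of background entries in this rise was not tested. Of the 331 strongest peaks 9.37% were intergenic by the rule, of ranks 332 to 1655 12.9%, and of ranks 1656 to 3310 15.1%. Below the threshold the share was 16.5% to rank 10000, 19.8% to rank 20000 and 22.0% to rank 30000. The far share of these summits was 48.4% in the first group and 69.0% in the last. The whole pooled list held 5740 such summits.

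Most intergenic summits were found in both replicates when each replicate's full list of 30000 entries was searched. Matches reached as low as rank 20988 in the list of replicate 3. Within 100 bp, replicate 2 had a summit at 427 of the 452 (94.5%), replicate 3 had one at 435 (96.2%), and 410 (90.7%) had one in both. None was missing from both lists. The share in both was 89.4% for near, 91.9% for far and 91.1% for other thresholded summits, which differ by little. The thresholded list was selected from these lists, so this is a description. Among each replicate's 3310 strongest peaks, 275 members (60.8%) were present in both.

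Replicate 3 had the higher peak signal at nearly every member. Over the 410 members in both lists, replicate 2 ranged from 12.98 to 499 with a median of 49.8, and replicate 3 from 18.8 to 931 with a median of 85.6. The ratio of replicate 3 to replicate 2 had a median of 1.78, with quartiles at 1.44 and 2.24, and was below 1 at 18 members, 11 near and 7 far. The signals are not rescaled between the lists. Across these summits, which share both libraries and are not independent replicates, Spearman's rho was 0.636, and on the log2 scale Pearson's r was 0.746. The lowest ratio, 0.324, belonged to the strongest summit in the gap between NijA and CG43245, which had a pooled signal of 300.5 but 119.7 in replicate 2 and 38.8 in replicate 3. The highest pooled signals with a summit within 100 bp in 1 replicate only were at Mkp3 and bin. Mkp3, a MAP kinase phosphatase gene, had 235 pooled and 90.6 in replicate 2, and bin had 218 pooled and 145 in replicate 3. By any overlap, 99.8% of all members had a peak in both replicates. At bin an overlapping member, whose summit lay closer to the gene, was found in both. Mkp3 was named after its values were seen.

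**Figure D2:**
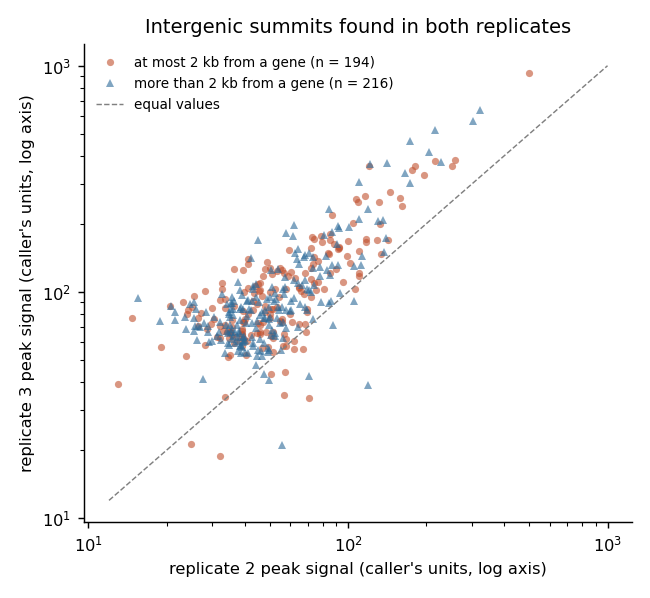
Peak signal in replicate 2 (horizontal log axis) and replicate 3 (vertical log axis), in the caller's units, for the 410 intergenic summits found in both lists. Circles are the 194 near and triangles the 216 far summits. Most points lie above the dashed line of equal values, and 18 lie below it. The highest point in both replicates is 1 near summit (499 and 931). The next near summit by pooled signal has 258 and 385, and the strongest far summit has 322 and 634.

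The strongest near summit stood far above the rest. It lay 1542 bp beyond the 3′ end of CG4004, in the convergent gap shared with Paics, an enzyme gene of purine synthesis, at chrX:12750852-12751629. Its signal was 499 in replicate 2, 931 in replicate 3 and 1486 pooled, the 4th rank of the whole list, and its summit fell inside the long noncoding RNA gene lncRNA:Vinr. The same gap, 7.25 kb long, held 5 members in all, of which a far summit inside lncRNA:CR44619 had signals of 173 and 463 in replicates 2 and 3 and 649 pooled. The next near summit, between jp and brwl, had 258 in replicate 2 and 385 in replicate 3 and 646 pooled. The gene jp codes for junctophilin, which links the plasma membrane to the calcium store of muscle cells. Its summit was 764 bp upstream of jp in a divergent gap of 2139 bp.

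Of the 30 summits named by strength, 3 bordered the paralog pairs Psc with Su(z)2 and ph-d with ph-p. Polycomb group proteins keep silent genes silent, and Psc, Su(z)2, ph-d and ph-p code for subunits of one of their complexes. The strongest far summit lay 4223 bp upstream of Psc, with signals of 322 in replicate 2 and 634 in replicate 3 and 953 pooled, 150 bp from the start of lncRNA:CR44339. The second lay 27439 bp beyond the 3′ end of Su(z)2, closer to CG13323, with 304 in replicate 2 and 572 in replicate 3 and 876 pooled. Psc and Su(z)2 are neighbouring paralogs, and each bordered gaps with 4 members. The near summit between ph-d and ph-p, 897 bp upstream of ph-d, had 252 in replicate 2 and 359 in replicate 3 and 590 pooled. The genes ph-d and ph-p are near-identical copies, and how reads that fit more than 1 place were treated is not given in the sources used here.

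The other strong near summits bordered genes of varied function. The pair blw, the ATP synthase alpha subunit gene, and CycB, a mitotic cyclin gene, enclosed a summit of signal 538, 534 bp beyond the 3′ end of CycB. A summit of 526 lay 88 bp beyond the 3′ end of wech, whose product acts at muscle attachment sites, on the side of Aldh-III, an aldehyde dehydrogenase gene. Hex-A, a hexokinase gene, had a summit of 519 lying 1804 bp upstream, in the gap with the acyltransferase gene LPCAT. The gene stck, which codes for the integrin adhesion protein PINCH, had one of 416 lying 1271 bp upstream, in the gap with the autophagy gene Atg13. The histone acetyltransferase gene nej, the fly CBP, had one of 408 lying 655 bp upstream, in the gap with btd, a zinc-finger gene of the head. The rhodopsin gene Rh5 had summits on both sides, of 427 on the side of Hacd1 and 370 on the side of Wdr81. The gaps CG17896 to CG17778, Boot to Ctu1 and Sol1 to Cyp9f2 held the remaining ones, with 478, 383 and 362.

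Strong far summits stood up to 22066 bp from the nearest gene. Between Cyt-c1L and eEF1gamma, a translation elongation factor gene, the summit had 217 in replicate 2 and 521 in replicate 3 and 746 pooled, 113 bp from the start of lncRNA:CR31044. The gap of NimC3, a phagocytosis receptor gene of blood cells, with hll held summits of 611 and 352, both at annotated long noncoding RNAs. A summit 12571 bp upstream of tal-1A, a gene whose transcript encodes small peptides of leg and epidermal development, in the gap with Dip-B, had 228 in replicate 2 and 374 in replicate 3 and 609 pooled. The insulin-regulated forkhead factor gene foxo, beside CG9922, had a summit of 512 lying 3353 bp upstream. The gaps hng3 to CG13898, CG6168 to CG6163 and robl37BC to CG15172 held summits of 421, 349 and 345. All 30 of the summits named by strength, 15 near and 15 far, were present in both replicates, 15 lay in divergent gaps, 11 were at a noncoding gene, and 11 held an E-box in their window. Over all 452 members the shares were 90.7% in both replicates, 32.7% in divergent gaps, 20.8% at a noncoding gene and 33.4% with an E-box. Some of the 30 lay in the same gap.

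Most gaps with an intergenic summit held just 1. Of 5757 gaps between protein-coding genes with bases that met the rule, 311 (5.4%) held a member. A single member was found in 242 gaps, a pair in 40, and 3 or more in 29 gaps, which together held 130 of the 452 summits. Gaps with a member had a median of 10235 eligible bp and gaps without one 878.5 bp, and 18.3% of the 509 gaps with over 20 kb of eligible bases held a member. Each replicate's own strongest peaks occupied 297 gaps in replicate 2 and 312 in replicate 3. They shared 221, which is 74.4% of the gaps of replicate 2 and 70.8% of those of replicate 3. The next thresholded summit of any class was a median of 4517 bp away, and 156 members (34.5%) had one within 2 kb.

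The gap upstream of chinmo held the most summits. The gene chinmo codes for a BTB zinc-finger factor that sets the identity of early-born neurons, and its neighbour RFeSP codes for the Rieske iron-sulphur subunit of mitochondrial complex III. The gap between them, 37.1 kb at chr2L:1614161-1651257, held 13 members, and the replicates' own strongest lists placed 13 in replicate 2 and 12 in replicate 3. The strongest lay 7772 bp upstream of chinmo with 141 in replicate 2 and 372 in replicate 3 and 509 pooled. Next came a summit 12441 bp upstream with 173 in replicate 2 and 302 in replicate 3, and one 1840 bp upstream with 132 and 251. The other 10 had pooled signals between 99.4 and 240, and the peak of the lowest overlapped that of the summit at 1840 bp.

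The gap upstream of tara, 20.4 kb at chr3R:16205251-16225650, held 9 members. The gene tara codes for a nuclear coregulator of the cell cycle and of chromatin, and its neighbour mtSSB for the single-stranded DNA-binding protein of mitochondria. The summit 1106 bp upstream of tara had 216 in replicate 2 and 378 in replicate 3 and 604 pooled, and that at 3145 bp had 122 in replicate 2 and 367 in replicate 3 and 480 pooled. The other 7 were between 99.2 and 235 pooled, and 3 of them had no replicate 3 summit within 100 bp. Both replicates' own lists placed 10 summits in this gap.

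**Figure D3:**
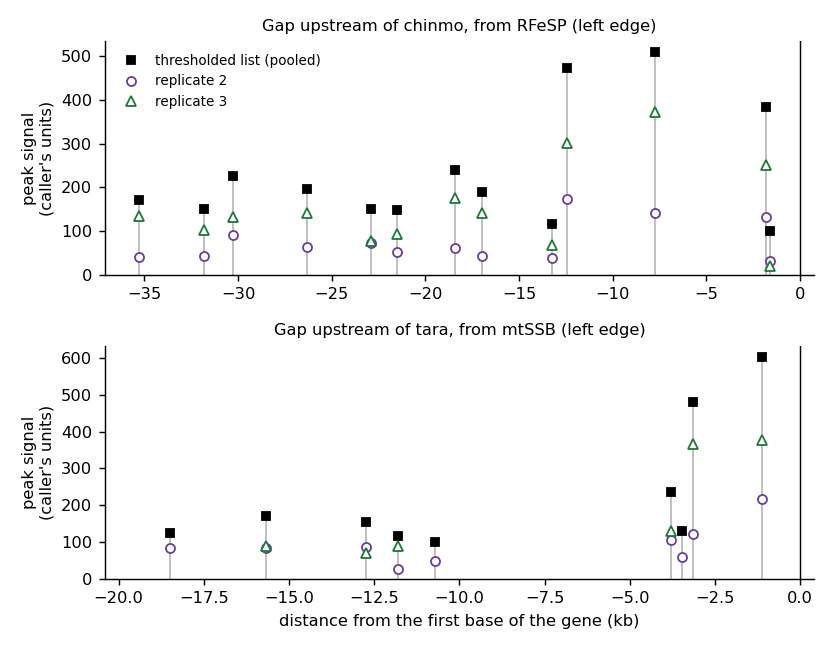
Peak signal in the caller's units (vertical axis) at each intergenic summit upstream of chinmo (upper panel, 13 summits) and of tara (lower panel, 9 summits), by distance in kb from the first base of the gene (horizontal axis, 0 at the gene). Squares are the thresholded list, circles replicate 2 and triangles replicate 3. The highest chinmo summits lie 1.8, 7.8 and 12.4 kb upstream, and the highest tara summits 1.1 and 3.1 kb upstream.

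The next gaps by number of members, with 7 and 6, lay on arm 3L. The gap of NijA, a ninjurin cell adhesion gene, with CG43245 was 75.05 kb long and held 7 summits of up to 300.5. The gap of scyl, an inhibitor of TOR signalling induced by hypoxia, with Dyro held 7 of up to 195. In replicate 2's own strongest list it held 4 and in replicate 3's 7. The gaps CG6168 to CG6163 and CG44362 to CG7560 held 6 each, of up to 349 and 219. Gaps with 5 members lay on other chromosome arms. They were that of CG4004 with Paics described above, that of Hacd1 with Rh5, of up to 427, and that of RYBP with Ppa, of up to 215.

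Gaps between divergent genes, whose starts face each other, held more of the summits than of the bases. They had 148 of the 452 summits (32.7%, 95% Wilson interval 28.6% to 37.2%) and 23.7% of the eligible bases. The share was 34.7% in replicate 2 and 32.5% in replicate 3, a mean of 33.6% ± 1.59 (SD, n = 2). It was 28.6% of near summits against 22.8% of near bases, and 36.6% of far summits against 23.9% of far bases. Tandem gaps held 45.1% of summits and 49.8% of bases, and convergent gaps held 22.1% and 21.8%. The remaining eligible bases lay beyond the outermost protein-coding genes of the arms and held no member. These base shares count the whole arms, including the arm ends. The 22 members of the chinmo and tara gaps are all in the divergent class. By the nearest gene, 51.6% of near summits lay on its 5′ side, against 43.4% of near bases, with a Wilson interval of 45.0% to 58.2%. Of far summits 54.9% did, against 52.4% of far bases, which lies inside the interval of 48.5% to 61.1%. In replicate 3's own intergenic summits the shares were 51.6% near and 57.1% far.

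Annotated noncoding genes were often at these summits. The rule removed protein-coding genes only, and 94 of the 452 summits (20.8%, 95% Wilson interval 17.3% to 24.8%) lay inside a noncoding gene or within 500 bp of the start of one, against 9.17% of eligible bases. In the replicates' own lists the mean was 22.2% ± 1.38 (SD, n = 2). It was 19.8% of near summits against 11.3% of near bases, and 21.7% of far summits against 8.52% of far bases, and in replicate 3 it was 22.3% near and 23.9% far. Strictly inside a noncoding gene lay 58 summits (12.8%), against 7.16% of bases. All of these base shares count the whole arms, including the arm ends. Of 4219 noncoding genes, 88 (2.09%) had such a summit. Genes annotated as ncRNA were at 89 of the 94 summits, small nucleolar RNA genes at 4, and small nuclear and transfer RNA genes at 2 each, since 1 summit can touch several genes.

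Known noncoding genes were among them. The gene lncRNA:Hsromega, whose heat-inducible RNA organises nuclear speckles, held 3 members, the strongest with 84.5 in replicate 2 and 232 in replicate 3 and 320 pooled, 194 bp from a start. Uhg4, a host gene of small nucleolar RNAs, which guide modification of ribosomal RNA, had 2 members, the strongest of 383 lying 48 bp from its start. Annotated transposable elements held 0 of the 452 summits, which allows a share of up to 0.664% by a limit of 3 counts and of up to 0.843% by the 95% Wilson interval. They made up 10.5% of eligible bases and 7.41% of those between the outermost summits of the arms. Of replicate 2's own intergenic summits 0.457% were inside such an element, and of replicate 3's none was. Transposable elements occur in many copies, and how reads that fit more than 1 place were treated is not given. Summits inside them may therefore not have been detectable, and the limits above cover counting error only.

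Of all 13945 protein-coding genes, 581 (4.17%) bordered a gap with a member, and genes of most developmental lists did so at small counts. Of the 13945 genes, 8128 bordered a gap with bases that met the rule, and the others could not be counted. Lists differed in the length of gap beside their genes. The median eligible length beside a gene was 90 bp over all genes, 25071 bp for Hox genes, 16479 bp for cardiac factors, 97 bp for ribosomal protein genes and 61 bp for chromatin architecture genes, and its part in the counts was not tested. In replicate 3's own strongest peaks the count was within 1 gene of that in the thresholded list for each of the 15 lists. In replicate 2's it was within 1 gene for all lists except segmentation and chemosensory receptor genes, whose counts are given below. Of 16 cardiac transcription factors, 2 bordered a member, Doc1 and Doc2, T-box genes of the heart and amnioserosa that share 1 summit of signal 134 (47.9 in replicate 2 and 83.6 in replicate 3). It lay 15510 bp from Doc1 and 6619 bp from Doc2, and no cardiac factor bordered a member within 5 kb. Of 19 visceral and muscle identity factors, 2 did. One was bin, the visceral mesoderm forkhead gene, with 2 overlapping peaks. The summit 1393 bp upstream had signal 218 and no replicate 2 summit within 100 bp, and the one 1192 bp upstream had 210.4 and was found in both (72.3 in replicate 2 and 128 in replicate 3). The other was stumps, an adaptor of fibroblast growth factor signalling, with signal 191 (68.5 in replicate 2 and 121 in replicate 3), lying 1039 bp away.

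Hox and other homeobox genes bordered few summits by count, but at shares above the 4.17% of all protein-coding genes. That 4.17% includes genes with no eligible bases beside them. The shares were 37.5% for Hox, 14.3% for NK and other homeobox, 8.33% for segmentation, 16% for bHLH and 22.2% for neural and glial genes. With summits within 5 kb of the gene only, they were 12.5%, 0%, 4.17%, 12% and 11.1%, against 2.58% of all protein-coding genes. Eligible bases lay beside 8 of 8 Hox, 20 of 21 NK and other homeobox and 23 of 24 segmentation genes. They lay beside 18 of 25 bHLH and 15 of 18 neural and glial genes, and beside 8128 of all 13945 genes. The median eligible length beside the genes of these lists was 1947 to 25071 bp, against 90 bp over all genes. The part of either in these shares was not tested. Of 8 Hox genes 3 bordered a member, abd-A with a summit of 197 lying 12816 bp from it, and Dfd and Scr. The last 2 share 1 summit of signal 103 in their gap, 16316 bp from Dfd and 4376 bp from Scr. Of 21 genes of the NK and other homeobox list 3 did. They were C15 (264, 7539 bp away), the Meis-type cofactor gene hth (104, 13240 bp away) and the POU gene vvl. The gene vvl had 2 members, the stronger of 102 lying 58754 bp away. Of 24 segmentation genes 2 did, hry, the pair-rule gene hairy, with 4 members of up to 199, and the gap gene hb with 1 of 98.0. The strongest of hry lay 21535 bp from it, and that of hb 7903 bp from hb. The segmentation count was 5 in replicate 2's own strongest peaks and 2 in replicate 3's. Of 25 bHLH genes 4 did, led by hry, the Notch target E(spl)mbeta-HLH (132, 3050 bp away) and Oli (131, 30906 bp away). Of 18 neural and glial factors 4 did, led by the Sox gene SoxN (204), the cell fate gene pros (144, without a replicate 3 summit within 100 bp) and the Sox gene D (134). In that order, their summits lay 16424, 59276 and 1212 bp away.

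In the remaining lists few genes bordered a member by count. Their shares were above the 4.17% of all protein-coding genes for chromatin architecture, blood, sarcomere, stress and ecdysone genes (8.70% to 17.4%). In that order, eligible bases lay beside 13 of 23, 12 of 16, 20 of 23, 17 of 23 and 13 of 16 of these genes. The part of this in the shares was not tested. The share was below 4.17% for ribosomal protein genes (1.89%) and was 0% for signalling ligand and chemosensory receptor genes. Of 23 chromatin architecture genes 4 did (17.4%), all of them the Polycomb genes named above. The other Polycomb genes of that list, Pc, Pcl, E(z), esc, Scm, Sce and pho, bordered none. Of 16 blood and lymph gland genes 2 did, the GATA gene srp with signal 149 lying 1231 bp away, in the gap it shares with GATAe, and peb. The stronger member of peb, of 126, lay 27338 bp away. Of 23 sarcomere genes 2 did, wupA, which codes for troponin I (155, 8755 bp away), and Zasp52, a Z-disc gene (114, 88 bp away). Of 23 stress and early response genes 3 did, the nuclear receptor gene Hr38 (189), the co-chaperone gene stv (171) and Thor, which codes for the translation inhibitor 4E-BP (95.3). In that order, their summits lay 587, 596 and 2182 bp away. Of 16 ecdysone response genes 2 did, Eip75B, a nuclear receptor (141, 9149 bp away), and MsrA (107, 1664 bp away). Of 53 cytosolic ribosomal protein genes 1 did, RpS23, with a summit of 128 lying 145 bp beyond its 3′ end. None of 24 signalling ligand genes bordered a member in the thresholded list or in either replicate's list. The median eligible length beside them was 23163 bp. A list of 24 genes is too short to tell 0 from the 4.17% of all protein-coding genes. The ligand gene symbol Dl was not matched and is not among the 24. None of 24 chemosensory receptor genes did in the thresholded list or replicate 3's, and 2 did in replicate 2's.

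The DNA at intergenic summits was rich in A and T. Windows of 101 bp at the summit averaged 65.8% A or T (SD over peaks 10.7, n = 452), against 56.2% in windows centred 400 bp to the left (SD 10.1), a difference of 9.54 percentage points. The difference was 8.94 in replicate 2's own intergenic summits and 9.29 in replicate 3's. All eligible bases between the outermost summits of the arms were 59.0% A or T, so the flanks were below that level and the summits above it. Near summits had 64.7% against 57.1% in their flanks, and far summits had 66.7% against 55.5%. Summits within 500 bp of a TSS had 62.7%, and those inside genes and away from a TSS had 66.3%. Split by signal into 4 groups of 113, the strongest intergenic summits had 69.2% and the weakest 64.4%.

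**Figure D4:**
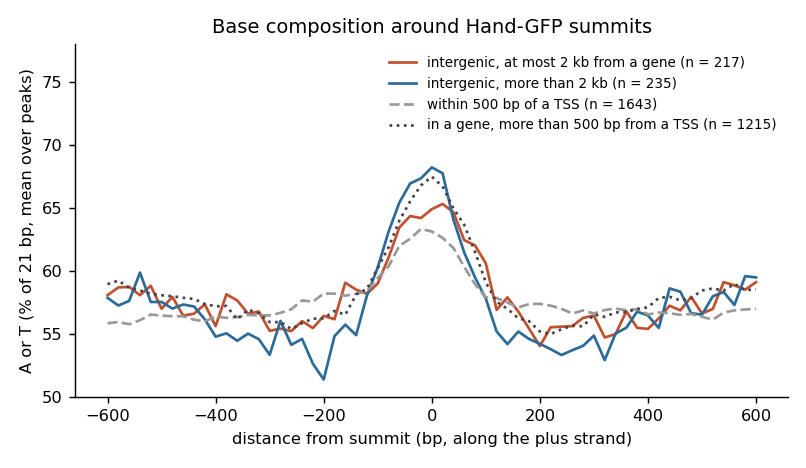
A or T content in percent of 21-bp steps (vertical axis) by distance from the summit in bp (horizontal axis), as means over near (217) and far (235) intergenic summits, summits within 500 bp of a TSS (1643) and other summits in genes (1215). The vertical axis starts at 50%. The rise lies within about 100 bp on both sides and is taller at far than at near summits.

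E-boxes as a class were not more frequent at intergenic summits than beside them. Words were sought on both strands in the 101-bp windows. E-boxes contain C and G, and summit windows were 65.8% A or T, against 56.2% in left flanks. The part of this base composition in the E-box counts was not tested. CANNTG occurred in 151 summit windows (33.4%, 95% Wilson interval 29.2% to 37.9%) and in 36.3% of flank windows, and in 34.7% of all thresholded summit windows. The form CATCTG, bound by Hand with Daughterless, was at 10 summits (2.21%) and 15 flanks (3.32%), and CAGCTG was at 2.65% and 4.42%. CATATG, the form bound by the mesodermal factor Twist, was at 4.87% and 2.88%. For CANNTG, the summit was below the flank in replicate 2 (34.7% and 38.6%) and in replicate 3 (33.6% and 38.6%). The intervals of summit and left flank overlap for each of these forms. Against the window centred 400 bp to the right the gap was wider for CANNTG, which was in 43.4% of those windows (38.9% to 48.0%), and the intervals did not overlap.

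Words of forkhead and Mef2 factors were more frequent at the summits, beside the higher A or T content given above, whose part in these counts was not tested. The forkhead word TAAACA was at 14.4% of summits (95% Wilson interval 11.4% to 17.9%) and 7.08% of flanks (5.06% to 9.82%), against 15.7% of all thresholded summits. The right flank had 9.73% (7.33% to 12.8%), whose interval overlaps that of the summit. TAAACA was at 17.1% of near summits and 6.91% of near flanks, and at 11.9% of far summits and 7.23% of far flanks. In replicate 2 it was at 11.9% of summits and 8.68% of flanks, and in replicate 3 at 13.5% and 9.93%. In replicate 3 alone it was at 15.3% of near summits and 11.2% of near left flanks, and at 11.8% of far summits and 8.82% of far left flanks. The Mef2 word was at 7.74% of summits and 1.99% of flanks, against 6.86% of all thresholded summits, and at 3.32% of right flanks. It was higher at the summit both near (8.29% and 2.76%) and far (7.23% and 1.28%). In replicate 2 it was at 6.62% of summits and 2.74% of flanks, and in replicate 3 at 7.51% and 2.43%. In replicate 3 near summits had 7.91% and near left flanks 3.72%, and far summits had 7.14% and far left flanks 1.26%.

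For some other words, but not for AAAAAA, the difference between summit and flank depended on the flank. The GATA word GATAA was at 23.04% of near summits and 13.8% of near left flanks, and at 21.7% of far summits and 20.9% of far left flanks. The right flanks had 17.1% near and 17.4% far, below the summits in both. In replicate 3's own peaks it was at 18.6% of near summits, 13.5% of their left flanks and 18.6% of their right flanks, and at 22.7%, 17.6% and 19.3% for far ones. The homeodomain word TAATTA, which can overlap the Mef2 word, was at 7.37% of near summits and 7.83% of near flanks, and at 11.9% of far summits and 5.11% of far flanks. Its right flanks had 3.23% near and 5.11% far. In replicate 3's own peaks near summits had 9.30% and their left and right flanks 7.91% and 5.58%, and far summits had 10.1% and their flanks 4.62% and 5.04%. Whether near and far differ was not tested. CGATA, bound by the insulator protein BEAF, was at 11.1% of summits, 7.52% of left flanks and 10.8% of right flanks. GAGAG, bound by the GAGA factor, was at 12.4% of summits and left flanks and 17.3% of right flanks. The run AAAAAA was at 24.8% of summits, 17.7% of left flanks and 18.6% of right flanks.

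The repeat CACACA was the word most depleted at summits by count. It was in 22 summit windows (4.87%, 95% Wilson interval 3.24% to 7.26%) and 67 flank windows (14.8%, 11.8% to 18.4%), against 7.43% of all thresholded summits, and in 16.2% of right flanks. It was at 5.99% of near summits and 12.4% of near flanks, and at 3.83% of far summits and 17.0% of far flanks. In replicate 2 it was at 7.53% of summits and 13.5% of flanks, and in replicate 3 at 7.28% and 13.02%. The part of the higher A or T content of summit windows in the CACACA counts was not tested. Of the 23 words, 11 were more frequent at summits than at flanks and 9 less frequent, and 15 had the same direction in the thresholded list and both replicates' lists. The remaining ones, CACTTGA (Tinman), AGGTGTG (T-box), GAGAGAG (the longer GAGA form), CAGGTAG (Zelda), TATCGAT (DREF, which contains the BEAF word), GGTCACA (M1BP), CCGGAA (ETS), AACCGG (Grainyhead), TGGGAA (Su(H)), TTCNNNGAA (STAT) and TGANTCA (AP-1), were each in at most 16 summit windows. CACTTGA contains an E-box. Bases masked as repeats in the reference made up 23.2% of summit windows and 17.5% of flanks.

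**Figure D5:**
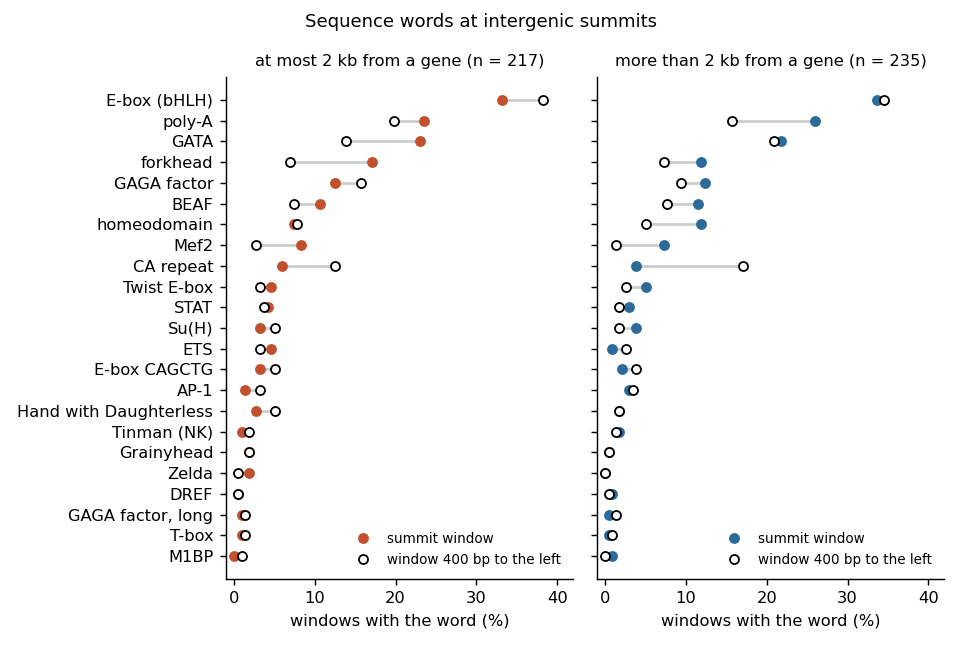
Percent of 101-bp windows that hold each of 23 words, named by the factor, for near summits (left panel, n = 217) and far summits (right panel, n = 235). Filled points are summit windows and open points the windows 400 bp to the left. Forkhead and Mef2 lie higher at the summit in both panels, and the CA repeat lower.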

How the data were processed

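Peak lists from 2 replicates of 1 group were used. Per the deposited file listing, the authors called 30000 peaks for each replicate and for the pooled reads, with 1 control alignment for all, and compared these lists for reproducibility (IDR), which gave the thresholded dm6 list. The pooled list is labelled as peaks and background, so its lower ranks can hold background. Not given in the sources used here are aligner, caller, threshold and depth. The deposited signal is the caller's value per peak, not rescaled between lists, and the deposited −log10 q-value was not used to rank, since 2762 peaks shared its highest value. All 3310 thresholded peaks stood in the pooled list with the same signal, so that signal is a pooled value without error. Lists on dm3 were not used.

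Summits were placed against Ensembl release 115 (dm6, 6 main arms), and shares of bases were counted exactly. Named genes border the 15 strongest near and 15 strongest far summits, the 5 gaps with most summits (1 of them is not reported here), the limits of the rule, or the 3 strongest summits of each of 15 lists. Noncoding genes, Mkp3, RYBP, Ppa and the other Polycomb genes were named after their values were seen. List symbols matched except 2 of 335, Dl and col, with 4 matched by synonym. Members, lists and words were chosen with earlier results of these data known. No p-values were computed. Replicate means use each replicate's own 3310 strongest peaks. Placement and word search were tested on simulated positions. Alternatives were other distances, windows, flanks, gene definitions and peak subsets. Python 3.11.15, numpy 2.4.6, scipy 1.17.1 and matplotlib 3.10.9 were used.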

Additional observations from a re-analysis of the deposited data

How the results depend on the processing

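No paired analysis was possible because there is 1 group. Of 51 alternatives for main values with an SD between replicates, 11 stayed within 1 SD, which is small with 2 replicates, and 40 moved beyond it. Ranges without replicate 2 or without replicate 3 were 13.2% to 13.7% for the intergenic share, 52.3% to 52.5% for the far share, 0.942 to 0.963 for the ratio of intergenic to other median signal (0.945 as reported), 8.94 to 9.29 points for the A or T difference, -5.08 to -3.88 points for CANNTG (-2.88 as reported), 32.5% to 34.7% for divergent gaps, 21.2% to 23.2% for noncoding genes and 4.04% to 4.17% for bordering genes. In the stronger part of the list these values were 12.2%, 49.0%, 0.955, 12.3, -5.45, 34.7%, 26.2% and 2.01%, the last by construction. With 200 bp from a TSS in place of 500 bp, the intergenic share was 19.7%, the far share 36.1%, the signal ratio 0.989, the A or T difference 10.1, divergent gaps 35.2% and noncoding genes 17.8%. With 1000 bp they were 11.4%, 62.3%, 0.944, 10.3, 31.0% and 22.0%. Counting noncoding genes as genes gave an intergenic share of 10.8% and a far share of 43.6%. Splitting at 1 kb and 5 kb gave far shares of 71.9% and 27.9%. Windows of 25 and 100 bp on each side gave A or T differences of 10.5 and 7.55 and CANNTG differences of -5.31 and -0.885, and the right flank gave -9.96 for CANNTG. Noncoding genes took 12.8% strictly inside and 32.7% within 2 kb of a start. Bordering genes were 2.36% by the nearer gene and 2.58% within 5 kb. Presence in both replicates was 65.3% within 50 bp, 98.9% within 250 bp and 99.8% by any overlap. The density ratio of 2.18 between outermost summits, and the word shares near and far in right flanks and in replicate 3, were chosen after seeing the data. Of 132 alternatives for single words, 24 turned the sign of the difference between summit and flank. The causes were not tested. Depth is unknown, so weak sites missing from a list were not detectable, not absent.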
